A study of Mus musculus with 6 samples.

Results

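The matrix metalloproteinases (MMPs), the ADAMTS proteases and the tissue inhibitors of metalloproteinases (TIMPs) were followed in sorted cells of the fetal mouse kidney. The members were the 46 gene symbols of the count table that begin with Mmp and a digit, or are Adamts or Timp followed by a number, out of 23420 symbols in all: 23 MMPs, 19 ADAMTS and 4 TIMPs. Kidneys came from embryonic day 18.5 litters of a wild-type dam and a sire heterozygous for a Six2-GFP transgene, which labels the cap mesenchyme, the nephron progenitor tissue. Kidneys of the embryos that carried the transgene were dissociated with trypsin and sorted by flow cytometry into GFP-positive cells (Six2-high) and GFP-negative cells (Six2-low), with the gate set on kidneys without it. Both fractions therefore come from the same transgenic kidneys, and Six2-low is a mixture of all the other kidney cells. Polyadenylated RNA was sequenced from 3 libraries per fraction. Each Six2-high library has a Six2-low partner whose title carries the same preparation tag and RNA kit name. Replicate 1 has a preparation tag of its own and the name TRI, and a second tag is shared by replicate 2, named Norgen, and replicate 3, named TRI. The submitters describe 3 experiments. Which litter each library came from is not given, so p-values measure the spread between these libraries, which may in part be technical.

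MMPs are zinc proteases that cut collagens, laminins and other matrix proteins, and some stay anchored in the plasma membrane. ADAMTS proteases are secreted relatives that cut proteoglycans such as versican, trim procollagens or act on microfibrils. TIMPs block MMPs, and Timp3, which binds to the matrix, also blocks several ADAMTS proteases. In the developing kidney these genes are known from the remodelling of matrix around the branching ureteric bud, the forming nephrons and the vessels.

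Total counts ran from 23535399 to 29791421 per library. Scaled by TMM, which sets the CPM used throughout, library sizes ran from 20364666 to 30993329, so 3 counts correspond to 0.0968 to 0.147 CPM, the usual depth-scaled count. The sort was reflected in marker lists, which were chosen with earlier results of these data known. The 10 nephron progenitor markers summed to 3680 to 5596 CPM in Six2-high and 352 to 481 CPM in Six2-low. They include Six2, the gene of the sort, and Spock2, which is also in a related gene list below. The 8 endothelial markers summed to 23.1 to 26.6 against 728 to 1273 CPM, the 7 macrophage and other immune markers to 8.45 to 23.5 against 158 to 198 CPM, and the 8 neutrophil markers to 0.491 to 0.80 against 97.3 to 384 CPM. The 10 stromal markers summed to 274 to 322 against 2418 to 2917 CPM, the 7 proximal tubule markers to 54.1 to 87.9 against 1036 to 1356 CPM, and the 8 ureteric bud and collecting duct markers to 17.2 to 23.0 against 768 to 939 CPM. The 7 podocyte markers were closer, at 625 to 904 against 1014 to 1173 CPM, with Wt1 higher in Six2-high (log2 fold change 1.42) and 6 lower. Foxd1 of the stromal list was also higher (log2 fold change 1.33, edgeR adjusted p = 0.046), against 9 stromal markers lower. Cd68 of the immune list was not called (edgeR adjusted p = 0.65), against 6 immune markers lower. The part of these cell types in the members' values was not tested. Rn45s, the precursor of ribosomal RNA, made up 9.59% of Six2-high replicate 3 and at most 0.676% of any other library. In such bulk libraries, fewer cells of a type and less RNA per cell cannot be told apart.

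The comparison of the fractions asks which of these genes differ between nephron progenitors and the rest of the kidney. Of the 46 members, 34 had enough counts to be tested, 11 had too few and 1, Mmp7, had none. In edgeR's quasi-likelihood test over all genes, 7 members rose and 20 fell in Six2-high relative to Six2-low, and 7 did not pass an adjusted p of 0.05. This is 79.4% of the tested members, where 50.1% of all 15347 tested genes were called. Lower members made up 58.8%, against 28.7% of all genes, and higher members 20.6%, against 21.4%. The median log2 fold change (Six2-high minus Six2-low) was -1.07 over the tested members and 0.046 over all tested genes. Of the 27 called members, 5 reached the count filter in 1 fraction only, Adamts13 in Six2-high and Mmp8, Mmp9, Mmp25 and Mmp28 in Six2-low, and had to differ to be tested at all. The fractions did not overlap in 29 of the 34 tested members, where 60.0% of all tested genes had no overlap. Six2-high lay above in 7 of them (28.0% of all tested genes) and Six2-low above in 22 (32.0% of all tested genes).

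**Figure D1:**
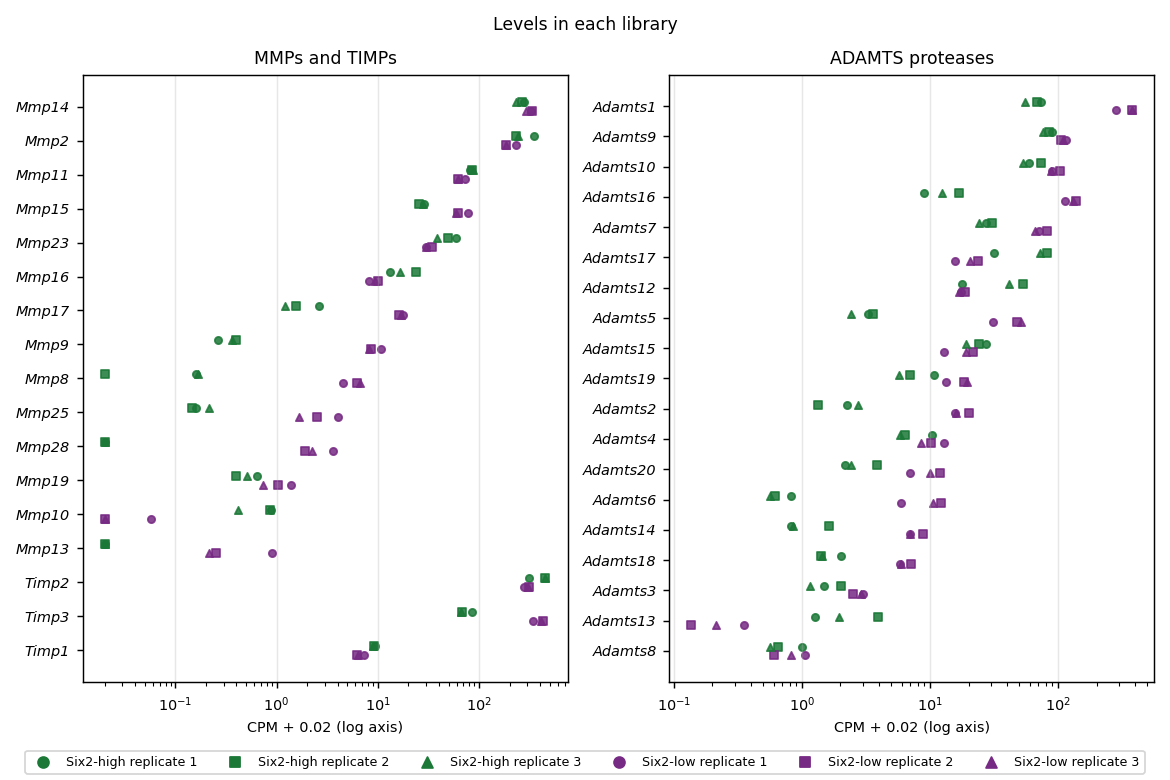
Level of 36 members in each library, as CPM plus 0.02 on a log axis, with Six2-high in green, Six2-low in purple and the marker shape giving the replicate. Mmp2, Mmp14 and Timp2 lie far to the right in both fractions, while Timp3, Adamts1, Adamts5, Adamts16, Mmp9 and Mmp17 are set apart to the right in Six2-low and Adamts13 and Adamts17 in Six2-high.

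The most abundant MMPs were shared by the fractions. Levels of different genes were compared per kilobase of annotated exon. The annotation behind the counts is not given, so ranks, shares, sums and ratios on this scale are approximate. Mmp2 led in both fractions, at 81.6 ± 19.4 CPM per kb (SD, n = 3) in Six2-high and 59.2 ± 7.65 in Six2-low. Mmp14 followed at 43.2 ± 3.84 and 53.2 ± 4.27, then Mmp11 at 30.3 ± 1.17 and 23.6 ± 2.45, and Mmp23 at 20.96 ± 4.54 and 13.4 ± 0.962 CPM per kb. These 4 genes kept ranks 1 to 4 in both fractions. Mmp2 held 43.9% ± 4.46 of the summed MMP level per kb in Six2-high and 34.3% ± 1.97 in Six2-low. Summed over the 23 MMPs, the level was 213, 173 and 167 CPM per kb in Six2-high replicates 1 to 3 and 188, 169 and 159 in Six2-low, so the summed MMP levels of the fractions overlapped. Within each of the 3 preparations the Six2-high sum was the larger, a difference that was not tested.

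Mmp2 (gelatinase A) and Mmp14 (membrane type 1 MMP) are known to work together: Mmp14 at the cell surface, with Timp2 as a bridge, activates the Mmp2 proenzyme. Mmp2 was at 350, 232 and 243 CPM in Six2-high replicates 1 to 3 and at 229, 184 and 185 CPM in Six2-low. Mmp14 was at 278, 262 and 233 CPM in Six2-high and 328, 336 and 288 CPM in Six2-low. Each of these genes had fractions that did not overlap, Mmp2 with Six2-high above and Mmp14 with Six2-low above. Neither passed the main test, which leaves out the pairing by preparation. Mmp2 differed by 0.46 log2 units (SE 0.18, edgeR adjusted p = 0.058) and Mmp14 by -0.30 (SE 0.12, adjusted p = 0.063). With the preparation as a replicate block both passed (edgeR adjusted p = 0.0028 and 0.0059). Leaving out Six2-high replicate 2 gave Mmp2 an adjusted p of 0.028, and leaving out Six2-high replicate 1 gave Mmp14 one of 0.042.

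Of the 6 tested membrane-anchored MMPs, Mmp14 included, 2 were higher and 3 lower, where 21.4% of all tested genes were higher and 28.7% lower. Mmp15 (membrane type 2) was at 28.2, 25.7 and 27.8 CPM in Six2-high and 77.3, 62.4 and 59.1 in Six2-low. Mmp17, which is held by a lipid (GPI) anchor, was at 2.61, 1.52 and 1.18 CPM in Six2-high and 17.7, 15.99 and 16.7 in Six2-low. Both were lower in every Six2-high library than in any Six2-low library. The log2 fold change was -1.28 (SE 0.13) for Mmp15, and -3.22 (SE 0.28, edgeR adjusted p = 2.8e-05) for Mmp17. Mmp16 (membrane type 3) went the other way, at 13.1, 23.8 and 16.5 CPM in Six2-high and 8.10, 10.02 and 9.45 in Six2-low (log2 fold change 0.95, edgeR adjusted p = 0.0088). Mmp23, an unusual member anchored by its N-terminus, was at 59.6, 49.2 and 38.4 against 30.2, 33.96 and 29.97 CPM (log2 fold change 0.65, edgeR adjusted p = 0.011). Neither gene's fractions overlapped. Leaving out both replicate 3 libraries ended the call of Mmp16 (adjusted p = 0.072), and leaving out both of replicate 1 or of replicate 2 ended that of Mmp23 (adjusted p = 0.071 and 0.054). The sixth, Mmp25, is described with the leukocyte enzymes.

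Mmp11 (stromelysin 3), which is activated inside the cell by furin, was at 81.0, 84.1 and 87.5 CPM in Six2-high and 73.3, 61.1 and 61.9 CPM in Six2-low. The difference was small, at 0.36 log2 units (SE 0.11, edgeR adjusted p = 0.025), although the fractions did not overlap. Leaving out 1 library ended this call in 3 cases, with adjusted p = 0.076 for Six2-high replicate 3, and 0.102 for each of Six2-low replicates 2 and 3. Mmp11 shares 5.58% of its exon positions with Chchd10, which had 1.91 times its count per exon base, so without strand part of its reads cannot be assigned with certainty.

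Mmp9, Mmp8 and Mmp25, enzymes known from leukocytes, were nearly absent from Six2-high. Mmp28, which is not counted among the leukocyte enzymes here, had 0 counts there. Mmp9, Mmp8, Mmp25 and Mmp28 reached the count filter in Six2-low only. They had to differ to be tested at all, so their test results are no separate support. Mmp9 (gelatinase B), made by neutrophils and macrophages among others, was at 0.243, 0.380 and 0.344 CPM in Six2-high and 10.8, 8.54 and 8.23 CPM in Six2-low (log2 fold change -4.83, SE 0.28, edgeR adjusted p = 3.4e-06). Mmp8 (neutrophil collagenase) had 4, 0 and 3 counts in Six2-high against 122, 160 and 208 in Six2-low, or 4.51, 6.24 and 6.71 CPM (log2 fold change -5.86, SE 0.53). Mmp25 (membrane type 6, GPI-anchored, also called leukolysin) was at 0.139, 0.127 and 0.196 against 4.03, 2.50 and 1.65 CPM (log2 fold change -4.12, SE 0.48). For each of the 3 the lowest Six2-low library lay far above the highest Six2-high library. Mmp28 (epilysin) had 0 counts in every Six2-high library and 96, 48 and 69 in Six2-low, at least 61.8-fold lower when the Six2-high libraries together are set at 3 counts. Mmp28 shares 12% of its exon positions with 1700020L24Rik, at 1.87 times its count per exon base, and its value is uncertain for that reason.

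The libraries of Six2-low did not rank these enzymes alike. The neutrophil marker sum was 384 CPM in Six2-low replicate 1 and 97.3 and 111 CPM in replicates 2 and 3. Mmp25 and Mmp28 were also highest in replicate 1, and Mmp9 was 10.8 CPM there against 8.54 and 8.23. Mmp8 was lowest in replicate 1, at 4.51 CPM, so it did not follow the neutrophil marker sum across these 3 libraries. The immune marker sum was 198, 163 and 158 CPM and the endothelial sum 1273, 728 and 732 CPM in the same order. The part of these cell types in the MMP values was not tested.

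**Figure D2:**
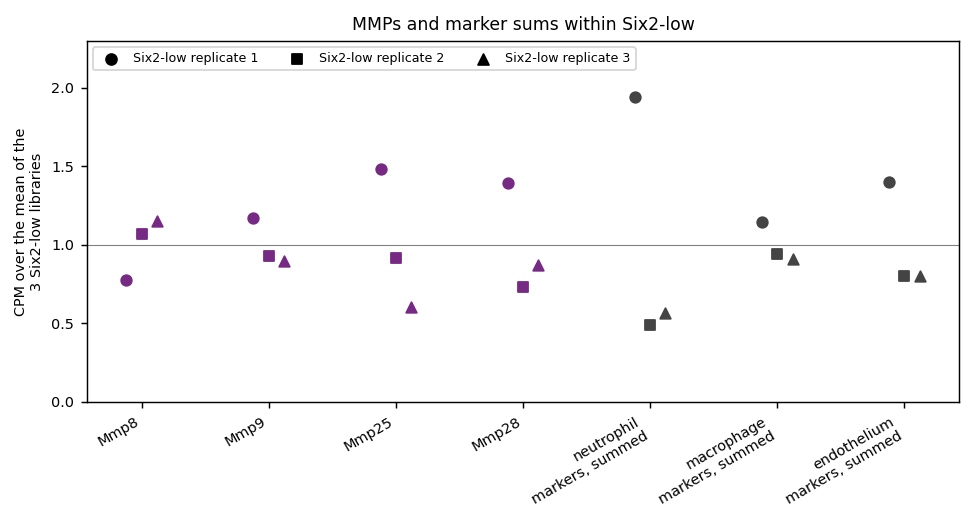
Level in each Six2-low library over the mean of the 3 Six2-low libraries, for 4 MMPs (purple) and for the summed CPM of 3 marker lists (grey), with the marker shape giving the replicate. Replicate 1 is the highest library for Mmp9, Mmp25, Mmp28 and the 3 marker sums and the lowest for Mmp8.

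A run of 10 MMP genes on mouse chromosome 9 was almost silent in both fractions, apart from Mmp8 at 4.51 to 6.71 CPM in Six2-low. In the mm10 annotation it spans chr9:7272514-7699585 (427 kb) and holds, in order, Mmp13, Mmp12, Mmp1b, Mmp3, Mmp1a, Mmp10, Mmp8, Mmp27, Mmp20 and Mmp7. Of these 10 genes, 7 had fewer than 10 counts over all 6 libraries together. Mmp8 alone passed the filter on low counts. Its near neighbour Mmp10 (stromelysin 2) had the opposite pattern, with 25, 20 and 8 counts in Six2-high and 1, 0 and 0 in Six2-low, a ratio of 60.9 with an exact (Clopper-Pearson) 95% interval of 10.5 to 2449. In the fit without a filter Mmp10 was higher (edgeR adjusted p = 0.00067). Mmp13 (collagenase 3) had 0 counts in Six2-high and 24, 6 and 6 in Six2-low, at least 10.5-fold lower (edgeR adjusted p = 0.0081 without a filter). All of these are low levels, under 1 CPM for Mmp10 and Mmp13.

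The promoter windows of this run differ from those found for other members. RefSeq windows (build GRCm38.p6, 250 bases before to 50 after the start) were found for 32 members, 10 of them in the run. They were searched on both strands for the AP-1 site TGANTCA, the element through which several MMP genes are known to respond to growth factors and stress, and for the TATA box TATAAA. In the run, 8 of 10 genes had an AP-1 match in a window and 9 of 10 a TATA match. Of the 22 other members with a window, 0 had an AP-1 match and 2 a TATA match (Adamts1 and Mmp21). Members without a window were not searched. They were Mmp2, Mmp9, Mmp16, Mmp17, Mmp19, Adamts4, Adamts5, Adamts6, Adamts7, Adamts8, Adamts10, Adamts15, Adamts16 and Adamts19. Over 27025 genes with a window, 8.97% had an AP-1 match and 15.7% a TATA match. The windows below show Mmp10, Mmp13 and Mmp8 of the run beside Timp2 and Timp3, the inhibitors with the highest level per kb in Six2-low, with matches to either motif in capitals, read 5′ to 3′ on the strand of the gene. A match is a description and not a binding site.
Mmp10, chr9:7502092-7502391, plus strand: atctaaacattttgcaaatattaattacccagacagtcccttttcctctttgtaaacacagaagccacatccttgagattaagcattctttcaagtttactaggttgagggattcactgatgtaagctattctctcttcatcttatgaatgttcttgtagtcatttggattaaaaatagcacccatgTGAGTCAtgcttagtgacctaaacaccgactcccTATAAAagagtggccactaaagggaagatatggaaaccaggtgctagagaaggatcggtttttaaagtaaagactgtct
Mmp13, chr9:7272264-7272563, plus strand: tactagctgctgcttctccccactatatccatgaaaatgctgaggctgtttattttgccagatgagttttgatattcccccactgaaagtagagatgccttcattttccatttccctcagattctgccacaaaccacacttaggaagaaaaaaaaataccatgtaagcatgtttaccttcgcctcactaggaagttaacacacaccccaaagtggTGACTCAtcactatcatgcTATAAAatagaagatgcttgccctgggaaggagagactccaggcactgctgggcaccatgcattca
Mmp8, chr9:7558179-7558478, plus strand: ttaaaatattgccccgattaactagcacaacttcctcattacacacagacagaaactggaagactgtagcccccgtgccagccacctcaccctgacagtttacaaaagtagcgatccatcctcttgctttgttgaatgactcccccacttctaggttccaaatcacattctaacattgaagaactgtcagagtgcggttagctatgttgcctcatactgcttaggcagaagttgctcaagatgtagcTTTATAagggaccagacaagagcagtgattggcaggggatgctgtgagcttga
Timp2, chr11:118355362-118355661, minus strand: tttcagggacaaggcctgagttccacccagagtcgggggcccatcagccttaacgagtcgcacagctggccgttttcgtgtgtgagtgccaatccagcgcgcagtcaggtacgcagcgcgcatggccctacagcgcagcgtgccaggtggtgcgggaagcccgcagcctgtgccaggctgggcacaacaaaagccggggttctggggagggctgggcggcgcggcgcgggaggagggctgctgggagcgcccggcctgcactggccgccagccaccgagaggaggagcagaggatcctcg
Timp3, chr10:86300162-86300461, plus strand: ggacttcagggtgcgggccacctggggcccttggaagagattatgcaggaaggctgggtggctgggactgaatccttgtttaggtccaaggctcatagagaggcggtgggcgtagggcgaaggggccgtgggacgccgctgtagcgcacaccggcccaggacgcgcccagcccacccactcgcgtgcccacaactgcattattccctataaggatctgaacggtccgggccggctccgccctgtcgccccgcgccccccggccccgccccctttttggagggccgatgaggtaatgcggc
Mmp10 and Mmp13 carry both motifs, and Mmp8 a TATA match read on the opposite strand. Timp2 and Timp3 have neither, and hold 25 and 24 CpG dinucleotides against 2, 1 and 4 in Mmp10, Mmp13 and Mmp8 and a median of 7 over all windows.

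The remaining MMPs were scarce. Mmp19, a secreted MMP, was at 0.626, 0.380 and 0.491 CPM in Six2-high and 1.37, 1.01 and 0.710 in Six2-low, and missed the threshold (edgeR adjusted p = 0.054), which it met once the replicate block was added (0.035). It shares 22.3% of its exon positions with the more highly counted Tmem198b and is uncertain. Mmp24 had 17 counts over all libraries, Mmp27 9 and Mmp21 7. Mmp12, Mmp3, Mmp1a, Mmp1b and Mmp20 had 1 or 2 counts each. Mmp12 (macrophage elastase) thus had 2 counts although macrophage markers were present in Six2-low.

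Most ADAMTS proteases were lower: 13 of 19 tested members were lower in Six2-high and 3 higher, with a median log2 fold change of -1.12. Over all tested genes 28.7% were lower and 21.4% higher, so the count of higher ADAMTS genes was not above that background. Summed per kb of exon, the ADAMTS level was 45.8, 57.1 and 45.9 CPM per kb in Six2-high and 117, 148 and 140 in Six2-low, with no overlap. Adamts1 held 48.4% ± 2.75 of that sum in Six2-low and 25.1% ± 4.31 in Six2-high. Adamts17 held 15.8% ± 6.15 in Six2-high, ranking second, and 1.90% ± 0.164 in Six2-low, ranking seventh.

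**Figure D3:**
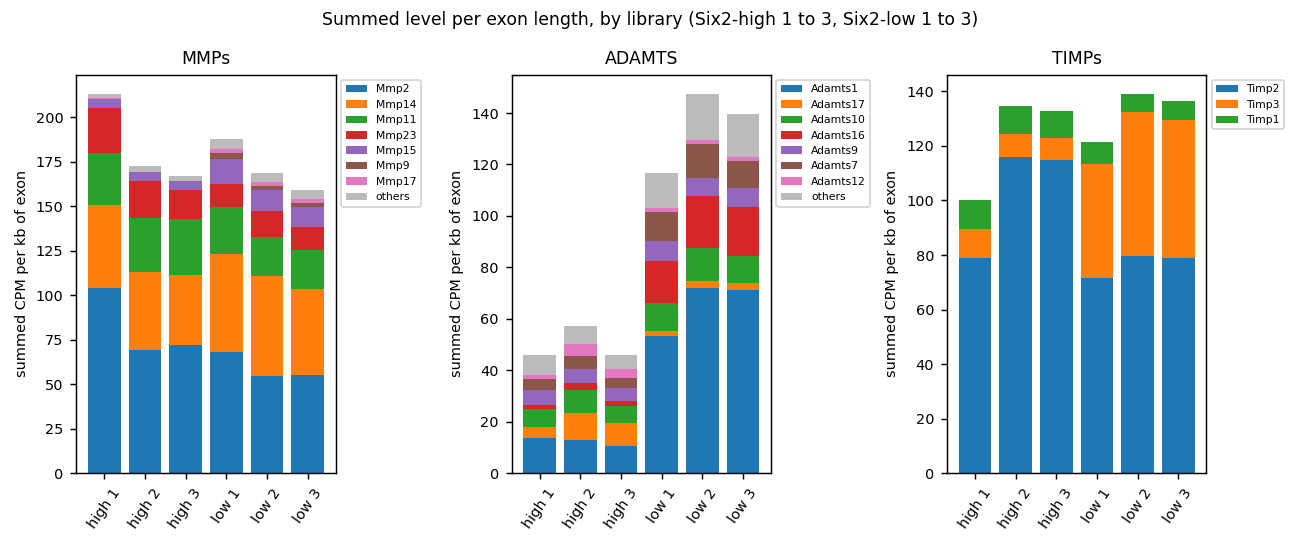
Summed CPM per kb of exon in each library for the MMPs, the ADAMTS proteases and the TIMPs, with the leading genes of each family as coloured segments and the rest in grey. The MMP and TIMP columns have similar heights in both fractions, and the ADAMTS columns are 45.8 to 57.1 in Six2-high and 117 to 148 in Six2-low.

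Among the proteoglycanases, the ADAMTS group that cuts versican and aggrecan, 4 of 7 were lower and 0 higher. Over all tested genes 28.7% were lower and 21.4% higher. Adamts1 (mm10 chromosome 16, 85793827 to 85803113), whose loss in mice is known to disturb kidney and ureter structure, was at 73.2, 69.0 and 54.8 CPM in Six2-high and 282, 381 and 377 CPM in Six2-low (log2 fold change -2.40, SE 0.17, edgeR adjusted p = 7.9e-06). Its neighbour Adamts5 (chromosome 16, 85856173 to 85901828), a main aggrecanase of mouse cartilage, was at 3.27, 3.59 and 2.41 CPM against 31.0, 47.6 and 51.2 CPM (log2 fold change -3.80, SE 0.25, edgeR adjusted p = 5.7e-06). Both genes of this pair were thus lower in all 3 Six2-high libraries than in any Six2-low library. Adamts1 still ranked 1 among the ADAMTS genes per kb in Six2-high, as in Six2-low. Adamts20 was at 2.16, 3.84 and 2.41 against 6.92, 11.9 and 9.91 CPM (log2 fold change -1.77, edgeR adjusted p = 0.0013). Adamts9, rank 4 per kb in Six2-high and rank 5 in Six2-low, differed less, at 90.4, 85.8 and 76.1 against 116, 106 and 110 CPM (log2 fold change -0.40, edgeR adjusted p = 0.014, or 0.15 when both replicate 3 libraries were left out).

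The other 3 proteoglycanases did not pass. Adamts15 was at 27.3, 24.1 and 19.1 CPM in Six2-high and 12.9, 21.6 and 19.2 in Six2-low (edgeR adjusted p = 0.17), with overlapping fractions. Adamts4 was at 10.4, 6.41 and 5.79 against 12.9, 10.1 and 8.49 CPM (adjusted p = 0.18), and met the threshold under the replicate block (edgeR adjusted p = 0.017) or when Six2-high replicate 1 was left out (0.018). Its counts are uncertain where strand was not used. Adamts8, which lies beside Adamts15 on chromosome 9, was at 0.540 to 1.04 CPM over the 6 libraries, with overlap (adjusted p = 0.74).

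Versican itself, the proteoglycan that these enzymes cut, had the opposite direction. Vcan was at 1575, 1658 and 1495 CPM in Six2-high and 282, 278 and 264 CPM in Six2-low (log2 fold change 2.52, SE 0.11, edgeR adjusted p = 1.1e-06), with no overlap. In Six2-high the mean per kb was 109 CPM for Vcan and 12.4 CPM for Adamts1, and in Six2-low it was 19.0 and 65.4 CPM. Acan, encoding aggrecan, had 4, 3 and 3 counts in Six2-high and 10, 10 and 12 in Six2-low, and was not tested.

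The procollagen N-propeptidases, which remove the amino-terminal propeptide of fibrillar collagens, were lower in 3 of 3, where 28.7% of all tested genes were lower. Adamts2 was at 2.23, 1.31 and 2.70 CPM in Six2-high and 15.8, 20.0 and 15.9 CPM in Six2-low (log2 fold change -3.05, SE 0.27, edgeR adjusted p = 3.0e-05). Adamts14 was at 0.80, 1.60 and 0.835 against 6.99, 8.85 and 6.97 CPM (log2 fold change -2.81, SE 0.31). The fractions were far apart for both. Adamts3, which also acts on the lymphatic growth factor VEGF-C, was at 1.46, 1.98 and 1.13 against 2.96, 2.50 and 2.87 CPM (log2 fold change -0.86, edgeR adjusted p = 0.034). Leaving out any 1 of 5 libraries ended the call: edgeR adjusted p was 0.061 and 0.096 for Six2-high replicates 1 and 3, and 0.061, 0.068 and 0.107 for Six2-low replicates 1 to 3. Of the collagens they act on, Col1a1 was at 65.9, 96.9 and 69.7 against 800, 1080 and 761 CPM and Col3a1 at 59.6, 16.5 and 24.3 against 1028, 1131 and 1156 CPM. Col2a1, the cartilage collagen, was higher in Six2-high, at 546, 713 and 553 against 67.5, 46.6 and 41.0 CPM (log2 fold change 3.55, SE 0.22).

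The 3 ADAMTS genes higher in Six2-high were Adamts13, Adamts17 and Adamts12. Adamts17, tied in humans to a microfibril disorder, was at 31.4, 81.8 and 72.2 CPM in Six2-high and 15.7, 23.6 and 20.7 in Six2-low (log2 fold change 1.63, SE 0.33, edgeR adjusted p = 0.0036, or 0.057 when both replicate 3 libraries were left out). Adamts13, the protease that trims von Willebrand factor in blood, had 36, 93 and 39 counts in Six2-high and 9, 3 and 6 in Six2-low, or 1.25, 3.92 and 1.92 against 0.333, 0.117 and 0.194 CPM (log2 fold change 3.43, SE 0.57, edgeR adjusted p = 0.0012). In these 2 genes the fractions did not overlap. Adamts13 reached the count filter in Six2-high only and had to differ to be tested, so its test result is no separate support. Vwf, its substrate, was at 0.487, 0.380 and 0.196 CPM in Six2-high and 8.14, 4.48 and 3.13 in Six2-low. The size of the Adamts13 difference was 4.14 without both libraries of replicate 1 and 2.57 without both of replicate 2. The log2 difference within preparations was 1.70, 4.36 and 2.96.

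Adamts12, which cuts the cartilage protein COMP, was at 17.7, 52.8 and 41.5 CPM in Six2-high and 17.4, 18.7 and 16.7 CPM in Six2-low (log2 fold change 1.08, SE 0.34, edgeR adjusted p = 0.027). In replicate 1 the fractions were level, with a log2 difference of 0.02, against 1.50 and 1.31 in replicates 2 and 3. Leaving out Six2-high replicate 1 gave an adjusted p of 0.00012. Leaving out any other library ended the call, with edgeR adjusted p = 0.076 and 0.087 for Six2-high replicates 2 and 3, and 0.077, 0.058 and 0.077 for Six2-low replicates 1 to 3. All 3 of these genes were lowest in replicate 1 among the Six2-high libraries. The progenitor marker sum was also lowest there, at 3680 CPM against 5596 and 5040, and its part in the result was not tested.

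Of the 9 ADAMTS genes that are neither proteoglycanases nor N-propeptidases, 3 were the higher genes above and 6 were lower in Six2-high. Over all tested genes 21.4% were higher and 28.7% lower. Adamts16 (chromosome 13, 70727802 to 70841811), studied as a blood pressure gene in rats, was at 9.004, 16.9 and 12.5 CPM in Six2-high and 112, 139 and 131 CPM in Six2-low (log2 fold change -3.32, SE 0.23, edgeR adjusted p = 7.0e-06). Per kb it was the second ADAMTS of Six2-low, at 18.6 ± 2.00 CPM, and the eighth of Six2-high, at 1.87 ± 0.58. Adamts6, linked to microfibrils, was at 0.80, 0.590 and 0.540 CPM against 5.96, 12.2 and 10.6 CPM (log2 fold change -3.87, SE 0.35, edgeR adjusted p = 3.3e-05). Both genes lie on chromosome 13 and neither had overlapping fractions. Adamts7, a relative of Adamts12 that also cuts COMP, was at 27.4, 30.3 and 24.2 against 70.6, 82.2 and 66.5 CPM (log2 fold change -1.42), so the 2 COMP-cutting enzymes had opposite signs. Comp itself had 0 counts in each Six2-high library and 9, 2 and 4 in Six2-low, and was not tested. Adamts18 was at 1.98, 1.39 and 1.42 against 5.77, 7.06 and 5.94 CPM (log2 fold change -1.96). Adamts10, another gene of microfibrils, was at 59.1, 73.1 and 52.9 against 90.0, 104 and 87.9 CPM (-0.61, edgeR adjusted p = 0.0075, or 0.068 when both replicate 3 libraries were left out). Adamts19 was at 10.6, 6.92 and 5.75 against 13.4, 18.3 and 19.3 CPM (-1.12, edgeR adjusted p = 0.0065, or 0.075 and 0.095 when both libraries of replicate 2 or of replicate 3 were left out).

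**Figure D4:**
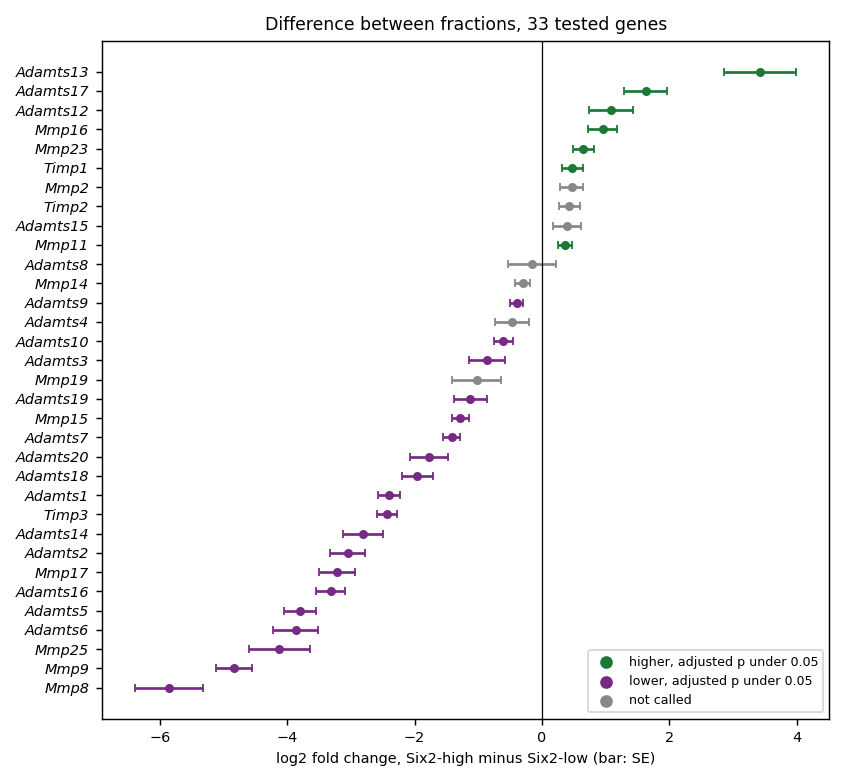
Log2 fold change of 33 tested members, Six2-high minus Six2-low, with the standard error as bars; green marks members called higher, purple members called lower and grey those not called. Mmp28, at 0 counts in Six2-high, is left out. Adamts13 has the largest positive value (3.43) and Mmp8 the most negative of those shown (-5.86).

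The TIMPs changed in make-up, with their summed level in overlap. Timp3 (chromosome 10, 86300372 to 86349506) was at 85.7, 67.1 and 65.8 CPM in Six2-high and 341, 429 and 413 CPM in Six2-low (log2 fold change -2.44, SE 0.15, edgeR adjusted p = 4.6e-06). Timp2 was at 308, 452 and 448 CPM in Six2-high and 279, 310 and 307 CPM in Six2-low (0.43, SE 0.16, edgeR adjusted p = 0.052), with Six2-high replicate 1 inside the range of Six2-low. Timp1 was at 9.46, 9.07 and 8.84 against 7.25, 6.16 and 6.29 CPM (0.47, SE 0.17, edgeR adjusted p = 0.043). So Timp3 was far lower in every Six2-high library, and the other differences were small. Timp2 met the threshold under the replicate block (adjusted p = 0.0101) or when Six2-high replicate 1 was left out (0.0052). Leaving out any 1 library ended the call of Timp1: edgeR adjusted p was 0.073, 0.0703 and 0.081 for Six2-high replicates 1 to 3, and 0.057, 0.15 and 0.149 for Six2-low replicates 1 to 3. Timp4 had 1, 0 and 1 counts in Six2-high and 6, 5 and 3 in Six2-low, a ratio of 6.10 (95% interval 1.40 to 55.3), too low to test.

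Per kb, Timp2 made up 83.8% ± 4.34 of the TIMP sum in Six2-high and 57.9% ± 0.821 in Six2-low. Timp3 made up 7.57% ± 2.55 and 36.5% ± 1.77. The sum of the 4 was 100, 135 and 133 CPM per kb in Six2-high and 122, 139 and 137 in Six2-low. The ratio of the TIMP to the MMP sum was 0.469, 0.779 and 0.797 in Six2-high and 0.648, 0.825 and 0.857 in Six2-low, which overlapped, with replicate 1 lowest in both fractions. Within each of the 3 preparations both the TIMP sum and the ratio were lower in Six2-high, and these differences were not tested. Timp3 lies inside Syn3 and shares 21.3% of its exon positions with it, but Syn3 had only 0.0558 times its count per exon base.

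Related genes of matrix turnover were read from 5 lists, each to be set beside the 21.4% of all tested genes that were higher and the 28.7% that were lower. Among activators and the plasminogen system, 0 of 14 tested genes were higher and 11 lower (median log2 fold change -1.35). Plau, encoding urokinase, was at 3.65, 2.40 and 4.71 CPM in Six2-high and 128, 181 and 202 in Six2-low (-5.58, SE 0.28), and Hpn, encoding the epithelial serine protease hepsin, fell by 5.05 (SE 0.28). Furin, which activates Mmp11 and the membrane-type MMPs, was at 89.7, 160 and 152 against 139, 212 and 199 CPM (edgeR adjusted p = 0.15, 0.0021 under the replicate block and 0.022 when both replicate 1 libraries were left out).

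Among other inhibitors and clearance receptors, a list that also holds the enhancer gene Pcolce, 3 of 12 were higher and 8 lower (median -0.95). The 3 higher genes were Spock1, Spock2 and Spock3. The higher count was near the background, and was 2 under RLE scaling. Spock2, a matrix proteoglycan gene, was at 971, 1562 and 1319 against 65.9, 55.5 and 47.5 CPM, and Pcolce, an enhancer of procollagen C-propeptide removal, fell by 1.93 (SE 0.11). Reck, a membrane-anchored MMP inhibitor, was at 35.7, 45.8 and 34.5 against 57.0, 75.7 and 70.4 CPM (-0.81, edgeR adjusted p = 0.0028, or 0.061 when both replicate 3 libraries were left out). Six2-high libraries were below all Six2-low libraries in Pcolce and Reck, and above them in Spock2.

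Of the ADAMTS relatives with no protease domain, 1 of 7 was higher and 5 lower (median -1.83). Adamtsl1 fell by 3.88 (SE 0.27) and Adamtsl4, linked to microfibrils, by 2.88 (SE 0.30), and the higher one was Thsd4, at 180, 190 and 164 against 113, 136 and 127 CPM. The ADAM list holds sheddases, which release membrane proteins, and also Adam23, which has no active protease. Of its 10 tested genes, 2 were higher, Adam10 and Adam23, and 4 lower (median -0.43). Over all tested genes 50.1% were called in either direction. Adam12 fell by 2.74 (SE 0.20) and Adam23, a brain-type member, rose by 2.47 (SE 0.30). Adam10, which cleaves Notch, was at 294, 454 and 427 against 165, 157 and 162 CPM. Of the matrix substrates, 3 of 21 were higher, Vcan, Col2a1 and Fbn2, and 17 lower (median -2.23), with Dcn, encoding decorin, falling by 3.90 (SE 0.13). Col1a1, Col3a1 and Dcn are also in the stromal marker list and make up most of its sum in Six2-low, so that sum is no separate measure beside the substrates.

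**Figure D5:**
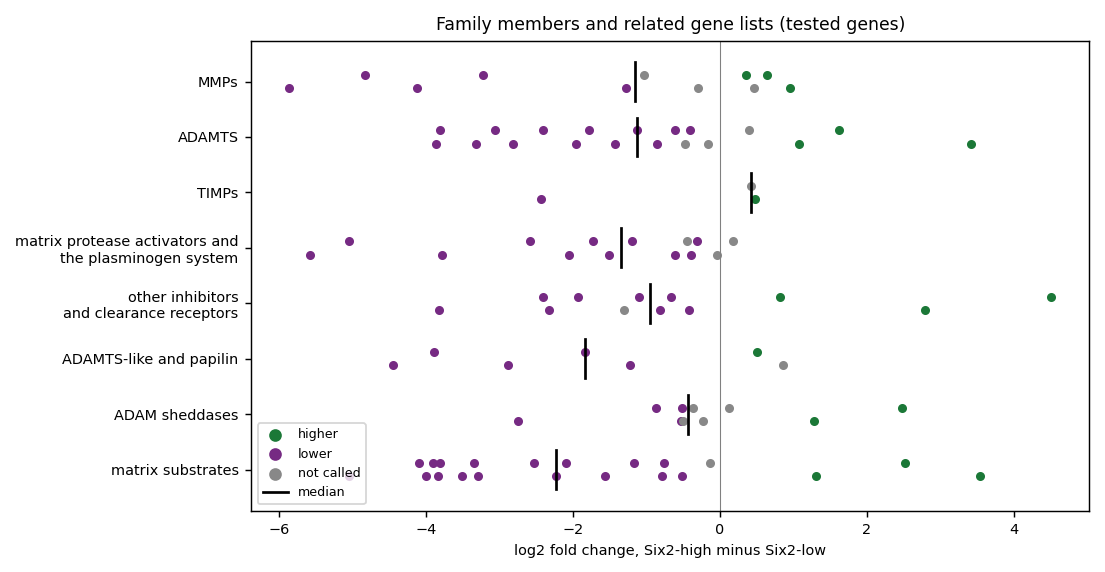
Log2 fold change of each tested gene, Six2-high minus Six2-low, by family and by related list, with the median as a black bar and colours for higher (green), lower (purple) and not called (grey). Medians run from -2.23 (matrix substrates) to 0.43 (TIMPs), and Mmp28 is counted in the median but not drawn.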

How the data were processed

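The deposited table gives raw read counts per gene symbol in 6 libraries, made by the authors; their normalised copy was not used. The submitters' processing notes list build mm10 and, with no roles, HTSeq 0.6.1p1, SAMtools, TopHat, TopHat2 2.1.0 and DESeq2. The annotation and whether strand was used are not given. Genes passing edgeR 4.0.16 filterByExpr (R 4.3.3) were scaled by TMM and tested with the quasi-likelihood F test, Six2-high against Six2-low, no block, p-values Benjamini-Hochberg adjusted over 15347 genes. The script was tested on simulated data, counts drawn from these libraries' means and spread with known 2-fold and 4-fold changes in 200 genes. CPM uses TMM-scaled library sizes, differences within a preparation a prior count of 2, and intervals and floors (3 counts) cover counting error only. Exon lengths, coordinates and exon sharing come from GENCODE M21 (mm10). Alternatives were DESeq2 1.42.0, RLE scaling, no filter, a replicate block, a 2-fold threshold and left-out libraries.

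Libraries of 1 preparation, whose titles share the preparation tag and kit name, were taken as paired in the replicate block and in differences within a preparation. The main test left this pairing out. The deviations of paired libraries from fraction means correlated across genes at 0.355, 0.421 and 0.319. Members, gene lists (71 genes, 70 in the table) and marker lists were chosen with earlier results of these data known. Every tested TIMP and every called member averaging 1 CPM or more has its value in each library; the 8 with the smallest p have fold change, SE and adjusted p, and each list its 2 genes of smallest p. Mmp2, Mmp14, Mmp10, Mmp13, Mmp19, Adamts4, Adamts8, Adamts15, Acan, Comp, Vwf, Col1a1, Col2a1, Col3a1, Fbn2, Furin, Reck, Thsd4 and Adam10 were given values after these were seen. One withheld item is not reported here.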

Additional observations from a re-analysis of the deposited data

How the results depend on the processing

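Members higher numbered 3 to 7 and members lower 16 to 21 when single libraries or both libraries of a replicate were left out, against 7 and 20. All genes higher ranged from 1329 to 3183 and all genes lower from 3300 to 4579 in the same fits, against 3285 and 4401. The lowest values of members higher (3) came without both libraries of replicate 2 or of replicate 3, and all genes higher numbered 2086 and 1329 there, and 2160 without Six2-low replicate 2. Against a 2-fold change 1 member (Adamts13) was higher and 16 lower, and over all genes 546 were higher and 2662 lower. With the replicate block 9 members were higher and 23 lower, and all genes rose to 4860 and 5059, so more calls there are not particular to the members. With DESeq2 members numbered 9 and 21 (all genes 3430 and 4497), without a filter 10 and 21 (3354 and 4686), and with RLE scaling 7 and 20 (3232 and 4426). The block changed no call of a member other than those given for Mmp2, Mmp14, Mmp19, Timp2 and Adamts4. Mmp2, Timp2 and Mmp14 passed with DESeq2 (adjusted p = 0.035, 0.041 and 0.033), and Mmp2 and Timp2 without a filter (adjusted p = 0.047 and 0.044). One direction turned among the tested members: Adamts8, never called, went from -0.16 to 0.011 without Six2-low replicate 1 (range -0.47 to 0.011 over left-out libraries), and the cause was not tested. Depth limits the 12 untested members: a library with 0 counts allows up to 0.0968 to 0.147 CPM.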

Other observations

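Some members are neighbours in the genome. Adamts1 and Adamts5, side by side on chromosome 16, were both lower in Six2-high, at -2.40 and -3.80 log2 units. Adamts8 and Adamts15, side by side on chromosome 9 (30899155 to 30963838), were both not called. In the MMP run on the same chromosome Mmp8 was counted mainly in Six2-low (490 of 497 counts) and Mmp10 mainly in Six2-high (53 of 54 counts).

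Within a preparation the size of several differences moved between replicates. For Adamts19 the log2 difference was -0.33 in replicate 1 and -1.39 and -1.73 in replicates 2 and 3, and for Timp3 it was -1.99, -2.67 and -2.65. For Mmp25 it was -4.30, -3.61 and -2.54. For Adamts7 it was -1.36, -1.44 and -1.45, among the closest of the called members. Replicate 1 is the only preparation with its tag, so the tag and the preparation cannot be told apart.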
